A study of Mus musculus with 14 samples.

Results

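The genes described here are 10 bile acid and organic anion transporters of the hepatocyte, followed in mouse liver after injection of concanavalin A (ConA), a plant lectin that activates T cells and causes acute hepatitis, with or without the m6A reader YTHDF1. They were taken by symbol from the table of each library, and all 10 of 10 were found among the 17656 genes listed. The sinusoidal uptake carriers were Slc10a1, Slco1a1, Slco1a4, Slco1b2 and Slco2b1, the canalicular exporters Abcb11, Abcb4 and Abcc2, and the basolateral exporters Abcc3 and Abcc4.

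As background, hepatocytes take up conjugated bile acids from sinusoidal blood mainly through NTCP, the sodium-dependent carrier encoded by Slc10a1. The OATP carriers of the Slco genes take up unconjugated bile acids, bilirubin, steroid conjugates, thyroid hormones and many drugs without sodium. At the canalicular membrane, BSEP (Abcb11) pumps bile salts into bile, MDR2 (Abcb4) moves phosphatidylcholine to the outer leaflet so that bile salts are held in mixed micelles, and MRP2 (Abcc2) exports bilirubin glucuronides and other conjugates. MRP3 (Abcc3) and MRP4 (Abcc4) sit in the basolateral membrane and return conjugates and bile acids to blood. Loss of uptake carriers and canalicular pumps in inflamed liver is known as a part of cholestasis of inflammation.

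Each library was made from the liver of 1 mouse, on a C57BL/6 background by the study's methods and 8 weeks old by the design text of the series. Wild-type (WT) mice and mice labelled Ythdf1-/- (KO below) received saline or 8 mg/kg ConA by the intravenous route, and livers were taken 8 h later. After ConA there were 4 WT and 4 KO mice, after saline 3 WT and 3 KO mice. The knockout was made with CRISPR/Cas9 in the whole animal, so it covers leukocytes as well as hepatocytes.

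Values are TPM, transcript abundances that relate a gene's reads to its length and to all other reads of the library. They keep no read depth, so the spread between mice is the only error available. Ythdf1 itself was listed at 12.03 to 13.9 TPM (WT) and 18.4 to 20.8 TPM (KO) after saline, and at 18.7 to 25.6 TPM (WT) and 15.5 to 26.2 TPM (KO) after ConA. A gene-level value does not check an edit that leaves the transcript in place, so the genotypes below rest on the labels. The liver label was met by 8 hepatocyte markers that were detected in every group, with Alb at 30310 TPM or more. WT saline 2 and WT saline 3 differed by a median of 0.0793 on the log2 scale over genes, against 0.128 to 0.397 for the other pairs within a group. WT ConA 3 and KO ConA 3 were the farthest from their groups, at 0.259 to 0.397 against 0.128 to 0.228 between the other ConA livers of a genotype. WT saline 1 differed from the other WT saline mice in sex-biased genes, which are given beside Slco1a1. Results that turn on these libraries are given with and without them.

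The carrier genes Slco1b2 (chromosome 6, 141629452 to 141686646), Slco1a4 (141805438 to 141856284) and Slco1a1 (141907281 to 141946962) lie close together on GRCm38.p6. Slc10a1 lies on chromosome 12 (80953185 to 80968705) and Slco2b1 on chromosome 7 (99657804 to 99711340). The exporters are spread over chromosomes 2 (Abcb11, 69238282 to 69342616), 5 (Abcb4, 8893614 to 8959226), 19 (Abcc2, 43782308 to 43838332), 11 (Abcc3, 94343295 to 94393017) and 14 (Abcc4, 118482692 to 118707856). Reads of 50 bases could in principle be shared between relatives. Of the 50-base stretches of the longest coding transcript, 96.6% to 100% were found in no other gene for each member, with the lowest share for Abcb4, which shares stretches with Abcb1a. For Slco1a1 and Slco1a4, the nearest relatives, the share was 97.7% and 97.3%.

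Promoters are shown for 4 of the members whose listed start lies at the edge of the gene. The sequences are the 250 bases before the start from RefSeq (GRCm38.p6), read on the gene's own strand. Capitals mark 1 of 2 motifs, searched on both strands and not overlapping in these windows, namely AGGTCA (the hexamer bound by nuclear receptors such as FXR and RXR) and TTCNNNGAA (the STAT5-type site).
Slc10a1, chr12:80968706-80968955, minus strand: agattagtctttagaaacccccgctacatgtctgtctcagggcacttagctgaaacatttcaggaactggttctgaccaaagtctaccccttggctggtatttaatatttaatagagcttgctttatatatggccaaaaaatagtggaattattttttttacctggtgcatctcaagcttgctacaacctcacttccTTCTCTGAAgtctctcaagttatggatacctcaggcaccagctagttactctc
Slco1a1, chr6:141946963-141947212, minus strand: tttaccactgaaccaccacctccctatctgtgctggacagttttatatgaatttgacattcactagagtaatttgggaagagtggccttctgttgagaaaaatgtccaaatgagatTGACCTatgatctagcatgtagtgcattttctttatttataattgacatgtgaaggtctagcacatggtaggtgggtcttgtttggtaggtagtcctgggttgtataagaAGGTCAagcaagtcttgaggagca
Abcb11, chr2:69342617-69342866, minus strand: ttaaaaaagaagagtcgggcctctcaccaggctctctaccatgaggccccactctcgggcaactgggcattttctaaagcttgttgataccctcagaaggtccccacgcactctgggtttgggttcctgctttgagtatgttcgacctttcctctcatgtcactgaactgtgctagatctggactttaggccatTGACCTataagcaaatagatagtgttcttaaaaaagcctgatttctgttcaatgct
Abcc2, chr19:43782058-43782307, plus strand: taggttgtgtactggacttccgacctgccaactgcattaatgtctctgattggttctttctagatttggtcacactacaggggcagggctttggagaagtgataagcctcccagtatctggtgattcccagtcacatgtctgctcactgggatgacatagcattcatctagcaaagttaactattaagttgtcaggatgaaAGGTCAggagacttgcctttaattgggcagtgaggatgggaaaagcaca
The nuclear receptor hexamer was present in 4 of the 9 members with a listed promoter (Slco1a1, Slco1b2, Abcb11 and Abcc2), against 14% of 32851 mouse start sites. The STAT5-type motif was present in Slc10a1 and Slco1b2 and in 7.02% of start sites. Slco2b1, whose listed start also lies at the edge of the gene, held neither of the 2 motifs and is not shown. A match is a run of letters and not a shown binding site. Abcc3 had no entry in the promoter table.

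In livers of saline mice the members spanned a wide range of levels, shown in the plot of TPM by library. Slc10a1 was the highest in both genotypes, at 664 ± 8.99 TPM (SD, n = 3) in WT and 607 ± 123 TPM (n = 3) in KO mice. Slco1b2, at 299 ± 22.5 and 196 ± 17.9 TPM, and Abcb11, at 171 ± 19.95 and 154 ± 20.5 TPM, came next, and the ranges of these 3 genes did not overlap within a genotype. Slco1a4, Abcb4, Abcc3 and Slco2b1 followed between 111 and 60.6 TPM as group means, and in KO mice neighbours in the order of these 4 genes overlapped. In WT mice the ranges overlapped between Slco1a4 and Abcb4 and between Abcb4 and Abcc3. Abcc2 stood at 39.7 ± 0.72 TPM in WT and 24.3 ± 2.94 TPM in KO mice. Slco1a1 varied most between mice, from 0.26 to 51.7 TPM, and Abcc4 was low in every library, at 1.5 TPM or less.

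**Figure D1:**
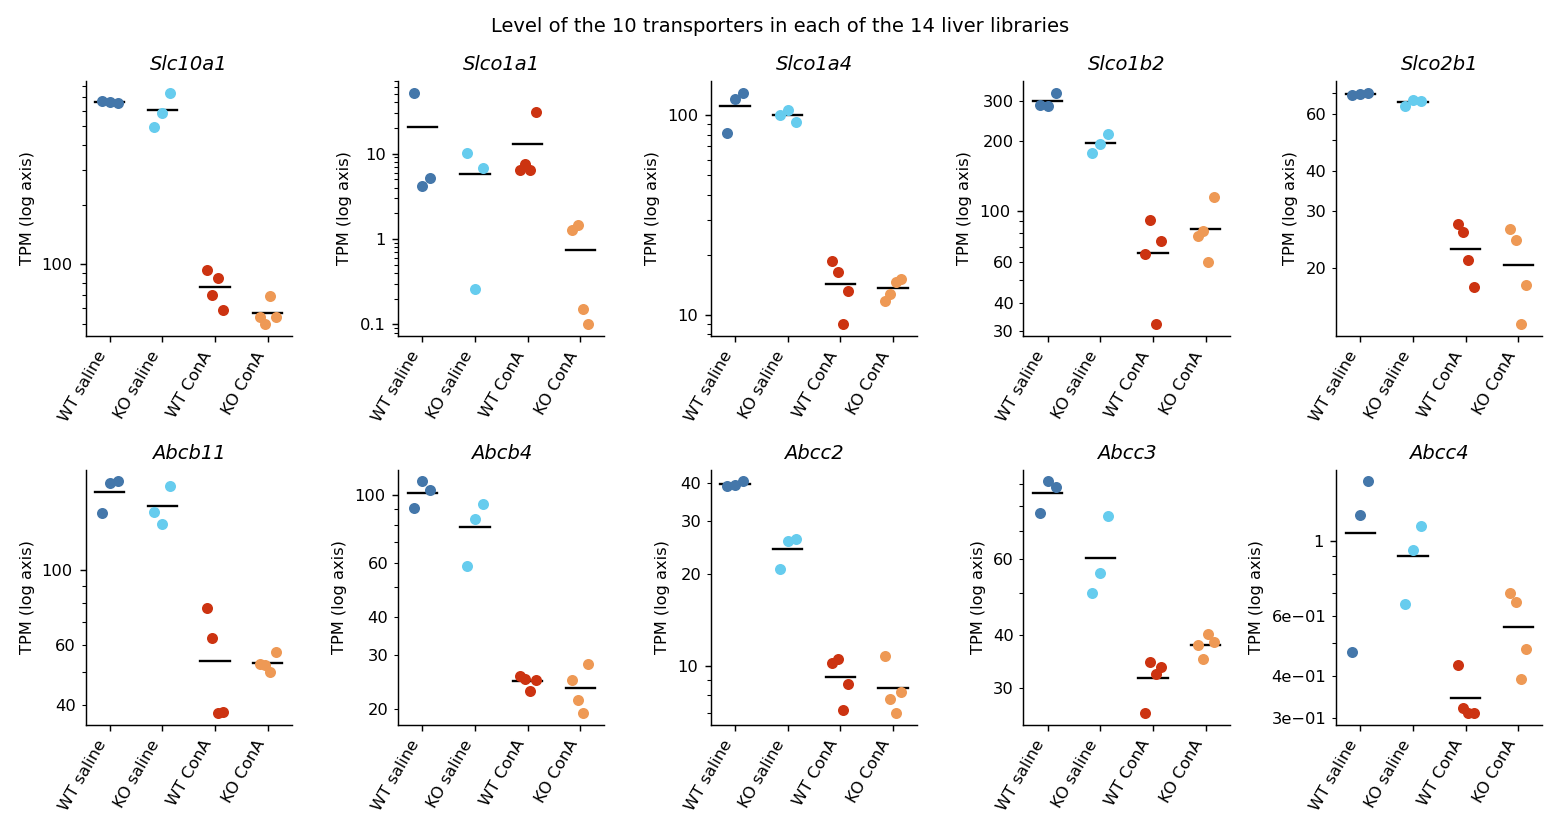
TPM (log axis, its range set for each gene) of the 10 transporters in each library, with 1 point per mouse and a bar at the group mean (3 mice per saline group and 4 per ConA group). For Slc10a1, all ConA livers lay at 93.2 TPM or less and all saline livers at 498 TPM or more, whereas Slco1a1 overlapped between WT saline and WT ConA.

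After ConA, transporters of every role were lower in both genotypes. Differences were tested with limma on log2(TPM + 1), with Benjamini-Hochberg adjustment over all genes tested and calls at an adjusted p under 0.05. In WT mice 8 of 9 members tested were called lower and 0 higher, where 31% of all 10768 genes tested were called lower, and the median log2 fold change was -2.0 for the members and -0.07 for all genes. In KO mice 9 of 9 were called lower, where 30.7% of 10988 genes were, with medians of -1.55 and 0.07. Abcc4 was too low to enter the test in both. The 2 ConA comparisons share no libraries.

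The ConA livers also differed in cell markers. The 5 neutrophil markers summed to 3.66 to 9.19 TPM (WT) and 2.63 to 7.80 TPM (KO) after saline. After ConA their sums were 314 to 553 TPM (WT) and 409 to 946 TPM (KO), and all 5 were called higher in both genotypes. The 8 hepatocyte markers summed to 60.9% of the saline mean in WT ConA and 49.7% in KO ConA livers, with a median log2 fold change of -0.71 and -0.84. Alb alone made up 76910 of 115832 TPM of this sum in WT saline livers. The list moved both ways, with 5 markers called lower and 1 higher in WT (Pck1 at -2.21 and Tat at 0.78 on the log2 scale) and 6 lower and 2 higher in KO mice. The 5 Kupffer cell markers summed to 14.3% and 28.8% of the saline mean. In bulk tissue, fewer hepatocytes and less transporter RNA per hepatocyte cannot be told apart, and the part of these shifts in the falls below was not tested.

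Among the uptake carriers, Slc10a1 fell the most in both genotypes. The WT saline livers held 674, 661 and 657 TPM and the WT ConA livers 93.2, 69.8, 85.0 and 58.7 TPM. In KO mice the saline livers held 498, 584 and 739.7 TPM and the ConA livers 54.1, 49.7, 69.3 and 53.9 TPM. No ConA liver came near a saline liver, and the ConA means were 11.6% of the saline mean in WT and 9.35% in KO mice. The log2 fold change was -3.12 in WT (95% interval -3.49 to -2.75, limma adjusted p = 1.07e-06) and -3.39 in KO mice (-3.74 to -3.04, adjusted p = 3.85e-08). Among all genes tested this was fall number 57 in WT and number 38 in KO mice.

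Slco1a4, the OATP1A4 gene, stood at 81.9, 121 and 129.96 TPM in WT saline and at 18.7, 16.4, 8.96 and 13.2 TPM in WT ConA livers. The KO values were 100.5, 106.7 and 93.0 TPM in saline and 11.8, 12.7, 14.6 and 15.1 TPM in ConA livers. Saline and ConA livers were far apart in both genotypes, with log2 fold changes of -2.89 (-3.45 to -2.32, limma adjusted p = 1.79e-05) and -2.80 (-3.08 to -2.52, adjusted p = 3.49e-08).

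Slco1b2, the only OATP1B carrier of the mouse, held 287, 286 and 325 TPM in WT saline and 65.0, 91.3, 32.2 and 74.3 TPM in WT ConA livers. In KO mice it held 179, 195 and 214 TPM after saline and 78.0, 81.5, 59.9 and 115 TPM after ConA. The ConA livers lay below all saline livers in each genotype, but the mean kept a share of 21.9% of the saline level in WT and 42.7% in KO mice. The log2 fold change was -2.26 in WT (-2.94 to -1.59, limma adjusted p = 0.000221) and -1.25 in KO mice (-1.67 to -0.84, adjusted p = 0.000156). WT ConA 3, a library that stood apart, was the lowest of all 14.

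Slco2b1, which encodes OATP2B1, was the steadiest member among saline mice, at 69.1, 69.5 and 70.1 TPM in WT and 63.6, 66.3 and 66.1 TPM in KO livers. After ConA it stood at 27.4, 25.8, 21.1 and 17.4 TPM in WT and 26.4, 24.4, 13.3 and 17.7 TPM in KO livers. The log2 fold change was -1.58 (-1.95 to -1.21, limma adjusted p = 5.22e-05) in WT and -1.68 (-2.13 to -1.23, adjusted p = 3.48e-05) in KO mice.

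Slco1a1, the OATP1A1 gene, whose liver expression is known to be higher in male mice, did not follow the other carriers. WT saline livers held 51.7, 4.15 and 5.21 TPM and WT ConA livers 6.46, 7.55, 6.38 and 31.0 TPM, so that the groups overlapped and the log2 fold change of -0.10 had an interval from -1.93 to 1.72 (limma adjusted p = 0.926). Without WT saline 1 it was 0.97 (adjusted p = 0.199). KO saline livers held 10.1, 0.26 and 6.80 TPM and KO ConA livers 1.28, 1.44, 0.15 and 0.10 TPM, which overlapped at the lowest saline mouse. The fall of 1.55 in KO mice (interval -2.93 to -0.17, limma adjusted p = 0.0483) was not called without KO saline 1, KO saline 3, KO ConA 3 or KO ConA 4, when the adjusted p lay between 0.0989 and 0.214, nor at a pseudocount of 0.1, with no filter on low values, with robust eBayes or with all 14 libraries in 1 fit (0.0864 to 0.161).

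The canalicular exporters fell by similar amounts. Abcb11 stood at 148, 181 and 183 TPM in WT saline, 149, 137 and 177 TPM in KO saline, 77.2, 62.9, 37.8 and 38.1 TPM in WT ConA and 52.8, 52.4, 50.1 and 57.4 TPM in KO ConA livers. The bile salt pump was below every saline liver in each ConA liver, at 31.7% of the saline mean in WT and 34.5% in KO mice. The log2 fold change was -1.70 in WT (-2.27 to -1.13, limma adjusted p = 0.000441) and -1.51 in KO mice (-1.78 to -1.25, adjusted p = 1.51e-06). The WT ConA mice were more spread than the KO ConA mice, with an SD of 19.4 against 3.05 TPM, a difference that was not tested.

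Abcb4, the phospholipid flippase of the canaliculus, held 90.6, 111 and 104 TPM in WT saline, 58.5, 83.3 and 93.3 TPM in KO saline, 25.7, 25.1, 22.8 and 24.9 TPM in WT ConA and 24.9, 21.4, 19.4 and 27.96 TPM in KO ConA livers. The ConA livers of both genotypes gathered around the same level, and the log2 fold change was -2.0 in WT (-2.28 to -1.72, limma adjusted p = 2.63e-06) and -1.69 in KO mice (-2.08 to -1.29, adjusted p = 1.32e-05). Abcc2, the exporter of conjugates, held 39.2, 39.3 and 40.5 TPM in WT saline, 20.9, 25.8 and 26.2 TPM in KO saline, 10.2, 10.5, 7.15 and 8.72 TPM in WT ConA and 10.8, 7.77, 6.99 and 8.22 TPM in KO ConA livers. Its log2 fold change was -2.01 in WT (-2.36 to -1.67, limma adjusted p = 8.52e-06) and -1.43 in KO mice (-1.80 to -1.07, adjusted p = 2.36e-05).

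Of the basolateral exporters, Abcc3 fell the least of all called members. It held 77.1, 91.2 and 88.5 TPM in WT saline, 49.98, 55.9 and 75.8 TPM in KO saline, 26.3, 34.5, 32.5 and 33.7 TPM in WT ConA and 37.9, 35.0, 40.1 and 38.5 TPM in KO ConA livers. All ConA livers lay below the saline livers of their genotype, and the log2 fold change was -1.41 in WT (-1.72 to -1.10, limma adjusted p = 3.69e-05) and -0.64 in KO mice (-0.97 to -0.32, adjusted p = 0.00282). Abcc4 held 0.47, 1.19 and 1.5 TPM in WT saline, 0.65, 0.94 and 1.11 TPM in KO saline, 0.43, 0.32, 0.31 and 0.31 TPM in WT ConA and 0.70, 0.66, 0.39 and 0.48 TPM in KO ConA livers. At this level it did not pass the filter of the ConA comparisons, and its fold change is given only among the limits, from a fit with no filter. For neither Abcc3 nor Abcc4 did the ConA mean lie above the saline mean in either genotype. This covers these 2 genes only, and transporters outside the members that were higher after ConA are given below.

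**Figure D2:**
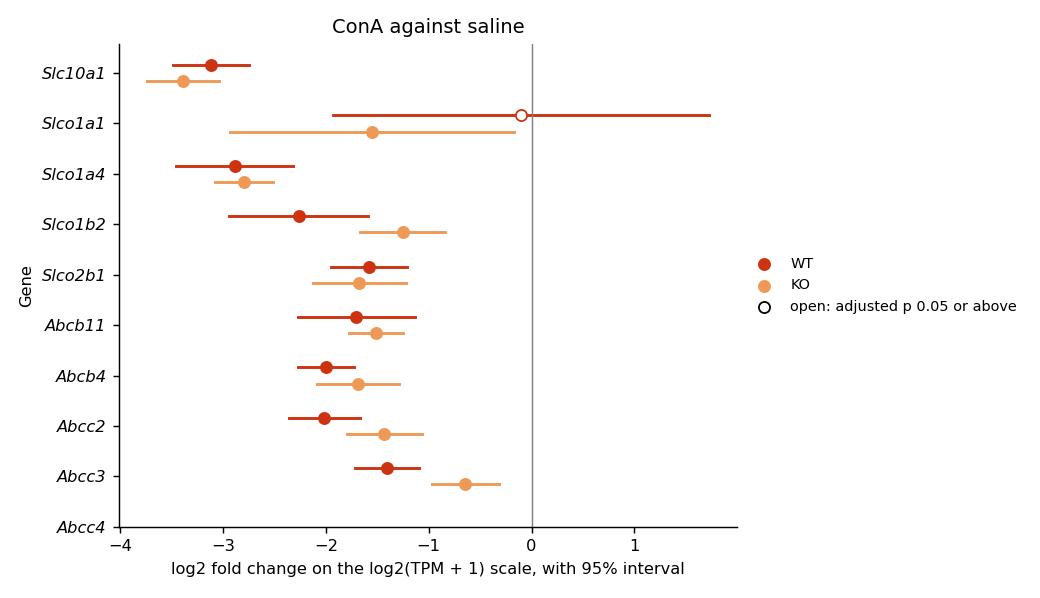
log2 fold change of each transporter after ConA against saline on the log2(TPM + 1) scale, with lines for the 95% limma interval, in WT (4 against 3 mice) and KO mice (4 against 3). Filled points had an adjusted p under 0.05, and Abcc4 was not tested. Slc10a1 lies farthest left at -3.12 and -3.39, and Abcc3 in KO mice nearest to 0 among the filled points at -0.64.

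Slc10a1 fell more than the exporters, and its ratio to other members is described here with no test, since the 3 ratios were chosen after the levels were seen. The ratio of Abcb11 to Slc10a1 within a library was 0.219 to 0.279 (WT) and 0.235 to 0.299 (KO) after saline, and 0.444 to 0.901 (WT) and 0.723 to 1.06 (KO) after ConA, so that every ConA liver was above every saline liver. For Abcc3 against Slc10a1, WT livers had a ratio of 0.129 ± 0.0128 after saline and 0.433 ± 0.128 after ConA, and KO livers had 0.0995 ± 0.0035 and 0.674 ± 0.0638 (SD, n = 3 saline and 4 ConA). The ratio of Slco1b2 to Slc10a1 overlapped between saline (0.426 to 0.495) and ConA livers (0.379 to 1.31) of WT mice and did not in KO mice (0.29 to 0.359 and 0.865 to 2.14). The order did not hold for all uptake carriers, as Slco2b1 kept 33% of its saline mean in WT mice while the exporters Abcb4 and Abcc2 kept 24.2% and 23.1%. In KO ConA livers Slco1b2 had the highest mean of the members at 83.6 TPM, above Slc10a1 at 56.8 TPM, with overlapping ranges. Each TPM ratio is free of the scaling between libraries.

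Without ConA, few members were called between libraries labelled KO and WT, shown in the plot of genotype differences. The median log2 fold change was -0.27 for the members and -0.10 for all genes tested. Of 10 members tested, 2 were called lower and 0 higher, where 12.9% of 10459 genes were called lower. These were Slco1b2 (log2 fold change -0.61, interval -0.85 to -0.37, limma adjusted p = 0.0179) and Abcc2 (-0.69, -0.93 to -0.45, adjusted p = 0.0138). The groups did not overlap for Slco1b2, Slco2b1, Abcc2 and Abcc3, 4 of 10 members, where 42.3% of genes tested did not overlap in one direction or the other, so that this share is near the background. Abcc3 had a log2 fold change of -0.51 (-0.88 to -0.14, adjusted p = 0.0588) and Abcb4 one of -0.39 (-0.80 to 0.01, adjusted p = 0.14). For Slc10a1 the difference was -0.15 (-0.48 to 0.19, adjusted p = 0.476), and for Abcb11 it was -0.15 (-0.45 to 0.16, adjusted p = 0.435). Slco1a1 had the largest difference of the members, -1.32, with an interval from -3.80 to 1.17 (adjusted p = 0.387) and a range of -1.92 to -0.24 with 1 library left out. Regulators and synthesis genes were also among the genes called lower in saline KO livers. They were 7 of 15 regulators (Nr1i3 at -0.78, Klb at -0.49 and the FXR gene Nr1h4 at -0.43) and 5 of 11 bile acid synthesis genes, with 0 of either called higher. These calls were not followed with WT saline 2 and 3 averaged, when genes called lower over the whole table went from 1350 to 20.

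Some markers of other liver cells differed between the genotypes. In KO saline livers 2 of 4 cholangiocyte and 2 of 4 sinusoidal endothelial cell markers tested were called higher than in WT. Of 5 stellate cell markers 2 were called higher, and of 8 hepatocyte markers 1 was called lower. Over all genes tested, 659 of 10459 were called higher. The 5 Kupffer cell markers had a median log2 fold change of -0.68, with 0 called. The marker calls were not followed with WT saline 2 and 3 averaged, when genes called over the whole table went from 2009 to 49. The summed cholangiocyte markers were at 46.5 to 57.03 TPM (WT) and 83.7 to 89.4 TPM (KO) after saline, and at 18.7 to 32.1 TPM (WT) and 36.8 to 56.4 TPM (KO) after ConA, with no overlap between the genotypes. These sums were mostly Spp1 (48.7 TPM on average in WT saline livers), and Krt19, Epcam and Sox9 overlapped between the saline groups. After ConA in WT mice Spp1 was called lower and Krt19, Krt7 and Sox9 higher. The endothelial sums after saline were 12.5 to 20.3 TPM for WT against 20.6 to 37.2 TPM for KO, and the stellate sums 15.05 to 59.9 TPM against 55.7 to 95.4 TPM. The part of these cells in the genotype differences of the transporters was not tested.

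Both saline calls leaned on WT saline 2 and 3, the nearly equal libraries. With these averaged into 1 sample, Slco1b2 had an adjusted p of 0.0834 and Abcc2 of 0.0795 by limma at log2 fold changes of -0.60 and -0.69, and genes called over the whole table went from 2009 to 49. Neither gene was called without WT saline 2 or without WT saline 3 (adjusted p 0.076 to 0.0948), and Slco1b2 was not called without KO saline 1 (0.0527).

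Between the ConA groups, 1 of 9 members was called, Slco1a1, where 0.428% of 10519 genes were called. Slco1a1 passed the filter of 1 TPM in 4 libraries through the WT ConA livers, since KO ConA 3 and KO ConA 4 held 0.15 and 0.10 TPM. It was lower in KO than in WT ConA livers by a log2 fold change of -2.77 (-3.79 to -1.74, limma adjusted p = 0.0369), the fall of rank 2 among all genes tested, and all 4 KO ConA values (0.10 to 1.44 TPM) lay below all 4 WT ConA values (6.38 to 31.0 TPM). WT ConA 4 carried the highest value, and without it the log2 fold change was -2.26 (adjusted p = 0.0265). The call was lost without WT ConA 2 or 3 or any 1 of the KO ConA mice (adjusted p 0.0561 to 0.106, log2 fold change -2.96 to -2.58). It was also lost with both replicates 3 left out (-2.79, adjusted p = 0.101), at a pseudocount of 0.1 (-4.14, adjusted p = 0.0506) and with no filter on low values (-2.77, adjusted p = 0.143). In these last settings the difference was as large or larger, but it was smaller without KO ConA 3 (-2.60) or KO ConA 4 (-2.58).

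The other uptake carriers and the exporters tested were not called between the ConA groups. The unadjusted interval of Slc10a1 lay below 0, with means of 56.8 TPM in KO and 76.7 TPM in WT livers. Slc10a1 had a log2 fold change of -0.42 (-0.79 to -0.04, limma adjusted p = 0.249), Slco1b2 of 0.40 (-0.25 to 1.05, adjusted p = 0.549), Slco1a4 of -0.03 (-0.50 to 0.43) and Slco2b1 of -0.18 (-0.68 to 0.31). The canalicular exporters lay between -0.11 and 0.04, and their intervals together ran from -0.51 to 0.53. These intervals bound the difference but do not show that the genotypes were equal. Abcc3 was higher in each KO ConA liver than in each WT ConA liver (log2 fold change 0.25, -0.04 to 0.55, adjusted p = 0.371). Slco1a1 and Abcc3, 2 of 9 members, had groups that did not overlap, where 10.5% of genes tested did not.

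**Figure D3:**
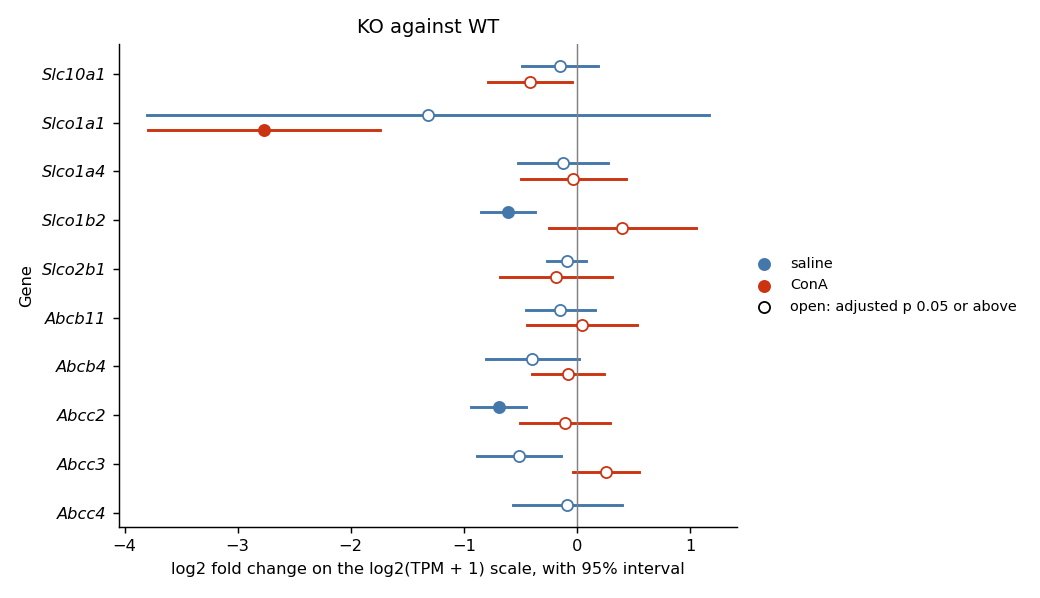
log2 fold change of KO against WT on the log2(TPM + 1) scale, with lines for the 95% limma interval, in saline (3 against 3 mice) and ConA livers (4 against 4). Filled points had an adjusted p under 0.05, which were Slco1b2 (-0.61) and Abcc2 (-0.69) in saline and Slco1a1 (-2.77) in ConA livers. Abcc4 was tested in saline only.

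Slco1a1 belongs to a set of liver genes whose level depends on sex and on the pattern of growth hormone release, and the other genes of that set were read beside it. Of 7 male-biased genes 4 could be tested between the ConA groups, where 9 of all 10519 genes tested were called lower in KO livers. Of the male-biased genes 2 were called lower in KO livers. These were the major urinary protein genes Mup20 (log2 fold change -1.59, limma adjusted p = 0.0369) and Mup3 (-1.22, adjusted p = 0.0315), whose many near-identical copies make the assignment of reads uncertain. Of 7 female-biased genes 7 were tested and 0 were called, with 3 at an unadjusted p under 0.05 by limma, as were 1753 of all 10519 genes. In saline livers 3 of 5 male-biased genes tested were lower in KO mice and 1 of 7 female-biased genes was, the cytochrome gene Cyp2b9. Over all genes, 12.9% of 10459 were called lower. The saline calls of these lists were not followed with WT saline 2 and 3 averaged, when genes called over the whole table went from 2009 to 49.

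Single mice also differed in these genes. WT saline 1, which held the highest Slco1a1 level, held 10.7 TPM of the male-biased cytochrome gene Cyp4a12a against 0.79 and 0.17 TPM in the other WT saline livers. It held 3.0 TPM of the female-biased gene Cyp3a41a, against 525 and 543 TPM. WT ConA livers held 958, 3.93, 34.5 and 116 TPM of Cyp3a41a and KO ConA livers 567 to 766 TPM. WT ConA 1 also had the highest level of its group for the female-biased genes Cyp3a44 (105 TPM), A1bg (58.7 TPM), Cyp2a4 (192 TPM) and Cyp2b9 (77.7 TPM), beside 6.46 TPM of Slco1a1. WT ConA 2, the lowest for Cyp3a41a, was the highest of its group for the female-biased Cyp2b13 (26.7 TPM), so these genes did not order the mice alike. The study's methods describe male mice and the sample labels give no sex. The Y-linked genes Ddx3y and Eif2s3y were at 0.07 TPM or less in all 14 libraries, and Uty at 0.87 to 2.12 TPM. Whether sex, hormone state or the annotation behind these values bears on the Slco1a1 difference was not tested.

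**Figure D4:**
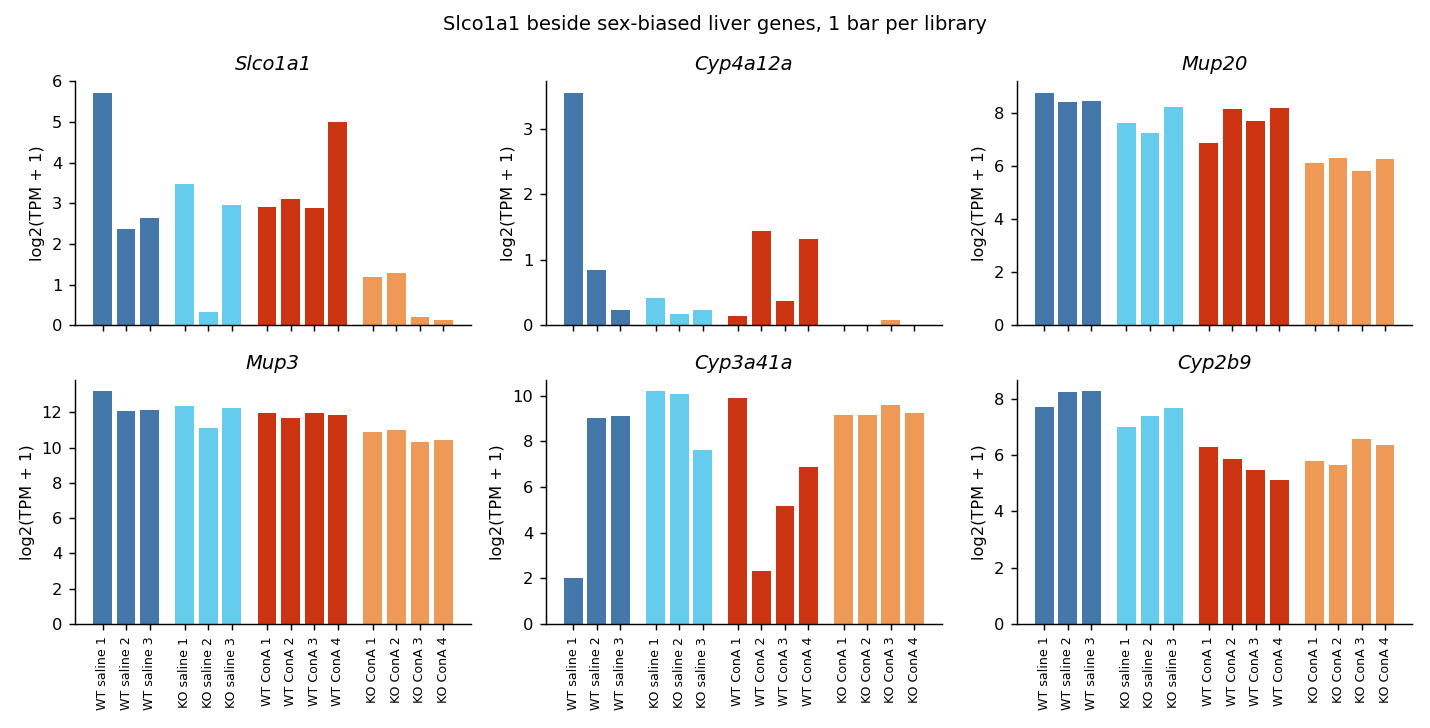
log2(TPM + 1) in each of the 14 libraries, 1 bar per mouse coloured by group, for Slco1a1, the male-biased genes Cyp4a12a, Mup20 and Mup3, and the female-biased genes Cyp3a41a and Cyp2b9. WT saline 1 combines the highest Slco1a1 bar (51.7 TPM) with the lowest Cyp3a41a bar (3.0 TPM), and the 4 KO ConA bars of Slco1a1 are short (0.10 to 1.44 TPM).

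The interaction term asks whether the ConA effect differed between the genotypes. Of 10 members 1 was called, Abcc3, where 4.78% of 11327 genes were called. Abcc4, which was not called, entered this test through saline livers alone, as every ConA liver held 0.70 TPM or less. The fall of Abcc3 was smaller in KO mice by 0.76 on the log2 scale (0.33 to 1.196, limma adjusted p = 0.0457). Its saline level was lower and its ConA level higher in KO than in WT livers. Rescaling the libraries by their median ratio moved the median interaction of all genes from 0.14 to 0.03 and left Abcc3 at 0.63 (adjusted p = 0.143). The call was also lost without WT saline 2 or 3, KO saline 1 or 2, WT ConA 1 or any 1 of the KO ConA mice (adjusted p 0.0514 to 0.13) and with WT saline 2 and 3 averaged (0.129).

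Slco1b2 (1.01, 0.18 to 1.84, limma adjusted p = 0.126) and Abcc2 (0.58, 0.11 to 1.05, adjusted p = 0.124) had interactions of the same sign, not called. With both ConA replicates 3 left out Slco1b2 was called at a smaller value of 0.85 (limma adjusted p = 0.0287). In that setting genes called over the whole table went from 541 to 1591. The term shares its libraries with the other comparisons. For Abcc3, Slco1b2 and Abcc2 the saline livers of KO mice lay below those of WT mice. That saline difference was not called for Abcc3, and the calls of Slco1b2 and Abcc2 leaned on WT saline 2 and 3. For Slco1a1 the interaction was -1.45 with a wide interval from -3.94 to 1.04 (adjusted p = 0.444), so the difference of its ConA response between genotypes was not shown.

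Other liver transporters were read for comparison. Of 17 in the list, 14 could be tested in WT mice, and 3 were higher and 8 lower after ConA. In KO mice 5 were higher and 8 lower of 16 tested. Over all genes tested, 2368 of 10768 were called higher and 3336 lower in WT mice. In KO mice 3723 of 10988 were called higher and 3376 lower. Slc47a1, the canalicular cation exporter MATE1, fell by 2.84 in WT (limma adjusted p = 9.15e-07) and by 3.05 in KO mice (5.65e-08) on the log2 scale, from 114 ± 9.18 to 15.1 ± 2.11 TPM in WT mice (SD, n = 3 and 4). The sterol exporter genes Abcg5 and Abcg8 and Abcc6 were lower after ConA in both genotypes as well, with Abcg8 at -2.38 and Abcc6 at -1.83 in WT mice. None of the 13 tested was called between the ConA groups by limma, while 3 had an unadjusted p under 0.05, as had 1753 of all 10519 genes.

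Of 8 other OATP genes 2 could be tested. Slco2a1, the prostaglandin carrier, was lower after ConA in both genotypes (log2 fold change -1.42 and -1.58), and Slco3a1 was higher (1.53 and 2.17) at a low level of 3.39 ± 1.298 TPM in WT ConA and 7.83 ± 2.50 TPM in KO ConA livers (SD, n = 4).

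Of 15 regulators of the transporters, 11 were lower and 0 higher after ConA in WT mice, and 6 were lower and 1 higher in KO mice, shown in the plot of regulators. Over all genes tested, 31% were called lower in WT mice and 30.7% in KO mice. Called higher were 2368 of 10768 genes in WT and 3723 of 10988 in KO mice. The largest fall was that of Nr1i3, the xenobiotic receptor CAR, at 196, 196 and 195 TPM in WT saline and 5.37, 5.02, 6.28 and 4.81 TPM in WT ConA livers. Its log2 fold change was -4.95 in WT (limma adjusted p = 3.38e-08) and -4.45 in KO mice (5.9e-09), and KO livers held 100.1 to 126 TPM after saline and 3.25 to 5.02 TPM after ConA. Klb, the FGF15 co-receptor, changed by -3.14 and -2.49, and Nr1i2, the receptor PXR, by -1.32 and -1.14.

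Nr1h4 encodes FXR, the bile acid receptor that induces Abcb11. It held 184, 158 and 153 TPM in WT saline, 123, 135 and 108 TPM in KO saline, 34.7, 32.9, 50.03 and 81.2 TPM in WT ConA and 24.6, 19.4, 13.5 and 15.04 TPM in KO ConA livers. It fell in both genotypes (log2 fold change -1.80 and -2.71), and all KO ConA livers lay below all WT ConA livers (log2 fold change -1.35, limma adjusted p = 0.0664). Between the ConA groups 10.5% of all genes tested did not overlap in one direction or the other. Nfe2l2, the oxidative stress factor NRF2, was the 1 regulator called higher, in KO mice (1.23, adjusted p = 1.72e-05). Between the ConA groups 0 of 14 regulators tested were called by limma, and 2 had an unadjusted p under 0.05, as had 1753 of all 10519 genes.

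**Figure D5:**
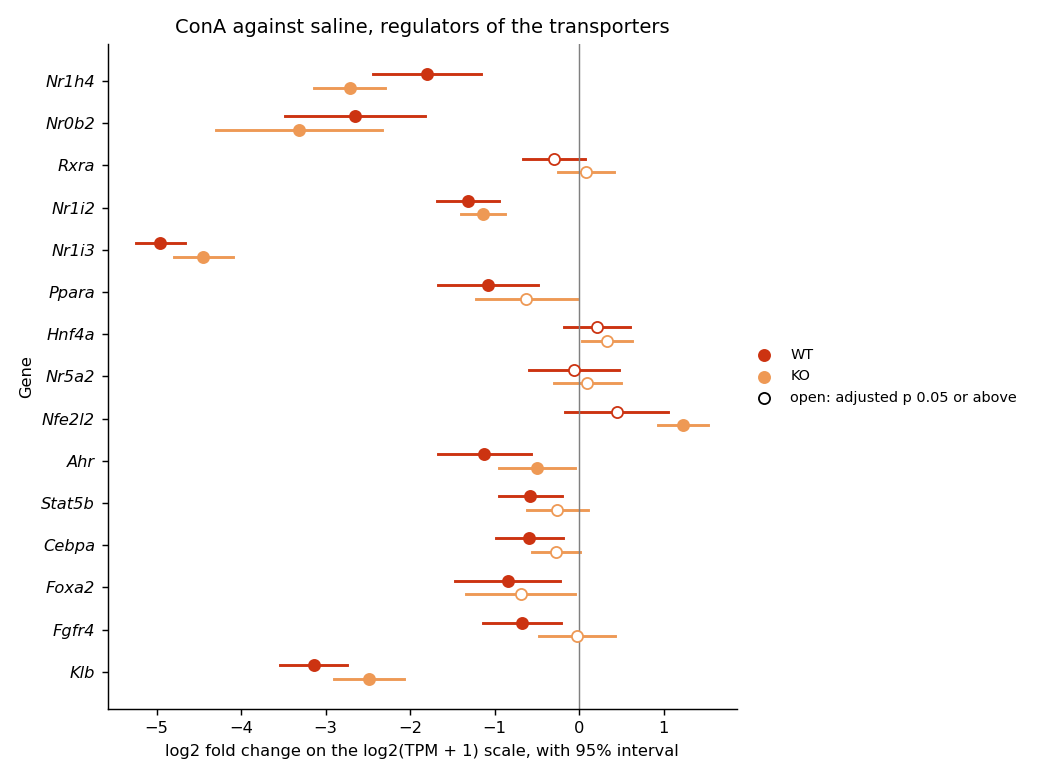
log2 fold change after ConA against saline on the log2(TPM + 1) scale for 15 regulators of the transporters, with lines for the 95% limma interval, in WT (4 against 3 mice) and KO mice (4 against 3). Filled points had an adjusted p under 0.05. Nr1i3 lies farthest left at -4.95 and -4.45, and Nfe2l2 in KO mice is the only filled point right of 0.

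Of 5 genes for scaffolds that hold transporters at the membrane, 3 were higher and 2 lower after ConA in each genotype. Pdzk1, which binds OATP and MRP carriers, fell by 1.46 in WT (limma adjusted p = 2.58e-05) and by 1.29 in KO mice (4.04e-05), Slc9a3r1 rose by 1.10 and 0.93, and Ezr rose by 1.75 and 1.19. In the bile acid synthesis list 7 of 11 genes were lower and 0 higher in WT mice and 6 lower and 1 higher in KO mice. Beside both lists, 31% of all genes tested were called lower in WT mice and 30.7% in KO mice. Called higher were 2368 of 10768 genes in WT and 3723 of 10988 in KO mice.

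Within the groups the members did not move as 1 block. Over the 14 libraries, after removal of the group means, the 45 pairs of members had a median Pearson r of 0.218, with 9 pairs over 0.5 and 13 below 0. The highest was Slco1a4 with Abcb11 (r = 0.735), and the lowest Slco1a1 with Abcc4 (r = -0.525). Slc10a1 and Slco1b2, the most abundant uptake carriers, had an r of -0.383. The gene whose deviations were most like those of Slco1b2 was Etfa (r = 0.974), that of Abcb11 was Cps1 (0.962), that of Slco2b1 Zfp825 (0.958), that of Abcc2 Klhl5 (0.958), that of Slco1a4 Akr1d1 (0.949) and that of Abcc3 Slc39a7 (0.941), among 7224 genes. For Slc10a1 it was Pecr (0.927), for Slco1a1 Cyp2c67 (0.926), for Abcb4 Pepd (0.919) and for Abcc4 Fmo1 (0.905). Each nearest gene has the highest of 7224 correlations over 14 libraries, a selection that raises r by itself. These correlations share the libraries, the TPM scaling and the ConA replicates 3 that stood apart, and describe these 14 livers only.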

How the data were processed

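Liver RNA of 14 mice was sequenced as single 50-base reads on a BGISEQ-500. The authors deposited 1 table of TPM per library. Per the labels' processing notes, these were made with Bowtie2 and RSEM 1.3.1 on GRCm38.p6, whereas the study's methods name STAR and HTSeq, so the pipeline behind the deposited TPM is not settled, and the annotation is not given in the sources used here. TPM keep no counts, so a count model was not used, no counting interval can be given and the depth is unknown. TPM are shares of a library, so a rise of other transcripts lowers them.

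Genes with a TPM of 1 or more in at least 3 libraries (4 for 4 against 4 mice) were tested on log2(TPM + 1) in R 4.3.3 by the moderated linear model of limma 3.58.1 with a mean-variance trend, each comparison with its own libraries, the interaction over all 14. Benjamini-Hochberg adjustment ran over all genes tested. A fold change on this scale understates the change of low genes. Ratios within a library were described with no test. The fits were repeated with a pseudocount of 0.1, with the minimum TPM at 5 or absent, and with robust eBayes, all 14 libraries in 1 fit, a replicate block, rescaled libraries, averaging of WT saline 2 and 3, and leaving out libraries.

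The 10 members and the gene lists were chosen with earlier results of these data known. Certain genes of these lists and 1 motif are not reported here, and counts are without them. From each list, at most the 3 genes leading by p between the ConA groups and the 3 leading by p in the WT ConA comparison are named, with the gene nearest to each member by correlation. Slco2a1, Slco3a1, Abca1, Slc51b, A1bg, the Cyp genes, the Y-linked genes and single cell type markers were picked with their values in view. The labels call the samples biological replicates.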

Additional observations from a re-analysis of the deposited data

Results flagged for a closer look

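In WT ConA livers, WT ConA 4 held 31.04 TPM of Slco1a1 while the other mice held 6.38 to 7.55 TPM. Abcc4 was at 0.43 TPM in WT ConA 1 and at 0.31 to 0.32 TPM in the others, a gap in a range near the lower limit of the tables. Both are mice far from the rest of their group of 4 by Dixon's ratio. Of 56 groups of 4 tested, 2 were marked, and chance marks about 1 in 20.

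The effect of ConA differed between the genotypes by the interaction term for Abcc3 (0.76 on the log2 scale, limma adjusted p = 0.0457). The call was lost with rescaled libraries (0.63, adjusted p = 0.143), with WT saline 2 and 3 averaged (0.73, 0.129), at a pseudocount of 0.1 (0.78, 0.0501), with no filter (0.76, 0.0605) and without any 1 of 9 libraries (WT saline 2 or 3, KO saline 1 or 2, WT ConA 1 or a KO ConA mouse).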

How the results depend on the processing

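Of 780 log2 fold changes of members under the alternatives, 714 kept their direction and side of the threshold, 39 lost the call, 3 gained one and 24 changed sign. The falls of Slc10a1, Slco1a4, Slco1b2, Slco2b1, Abcb11, Abcb4, Abcc2 and Abcc3 after ConA stayed called in both genotypes under every alternative run. Members called between the ConA groups went from 1 to 0 at a pseudocount of 0.1, with no filter and with both replicates 3 left out, and ranged from 0 to 1 with 1 library left out. Between the saline groups the 2 became 1 with all 14 libraries in 1 fit and 0 with WT saline 2 and 3 averaged, and ranged from 0 to 3 with 1 library left out. For the interaction the 1 became 0 at a pseudocount of 0.1, with no filter, with rescaled libraries and with WT saline 2 and 3 averaged, 2 with both replicates 3 left out, and 0 to 1 with 1 library left out. The cause was not tested.

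Sign changes concerned differences that were near 0 in the main fits. Not all stayed near 0 after the change, as for Slco1a1 without WT saline 1. Slco1a1 after ConA in WT mice was 0.0925 with both replicates 3 left out and -0.71 to 0.97 with 1 library left out (0.97 without WT saline 1). Between the ConA groups, Abcb11 was -0.0317 with rescaled libraries, -0.0735 with both replicates 3 left out and -0.10 to 0.24 with 1 library left out, Slco1a4 was -0.22 to 0.10 and Abcb4 -0.17 to 0.0033. Between the saline groups, Abcc4 was 0.0259 with WT saline 2 and 3 averaged and -0.31 to 0.0752 with 1 library left out, and Slco1a4 was -0.33 to 0.0037. For the interaction, Slco1a4 was -0.0386 with rescaled libraries, -0.0113 with WT saline 2 and 3 averaged, -0.14 with both replicates 3 left out and -0.10 to 0.29 with 1 library left out, and Slco2b1 was 0.0516 with both replicates 3 left out and -0.23 to 0.0833.

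Genes called over the whole table moved more than the members. Between the ConA groups 45 became 640 with all libraries in 1 fit, 25 with rescaled libraries, 4 with no filter and 5 to 52 with 1 library left out. Between the saline groups 2009 became 332 with all libraries in 1 fit, 49 with WT saline 2 and 3 averaged, 584 with no filter and 45 to 2739. For the interaction 541 became 328 with no filter, 28 with WT saline 2 and 3 averaged, 1591 with both replicates 3 left out and 22 to 769. Rescaling changed the split of higher to lower calls from 36 and 9 to 12 and 13 between the ConA groups and from 659 and 1350 to 744 and 771 between the saline groups.

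The labels tie the replicate numbers to no shared animal or day, and not every same-number pair deviated together (r of -0.0071 to 0.405 between the ConA groups and -0.0022 to 0.342 between the saline groups), although the replicates 3 of the ConA groups were the closest of their pairs. With a replicate block, members called were 8 and 9 after ConA, 1 between the ConA groups, 3 between the saline groups and 1 for the interaction, and genes called were 140 between the ConA groups and 358 for the interaction.

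TPM limit what can be said of Abcc4, which with no filter was called lower after ConA in WT mice (-0.58, limma adjusted p = 0.0465) and not in KO mice (-0.28, adjusted p = 0.0822). Leaving out WT saline 1 let it pass the filter through the other saline livers alone, so that call is not used.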
